A study of Mus musculus with 18 samples.

Results

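Regulatory T (Treg) cells and conventional T (Tconv) cells of cold brown adipose tissue (BAT) were compared on 6 arrays, 3 for each cell type, of the 18 arrays in the series. They were chosen by their sample labels. The cells came from C57BL/6 mice exposed to 12°C for 2 days after 2 weeks at 30°C. The other 12 arrays carried Treg and Tconv cells of BAT and of spleen from mice kept at 30°C, again 3 arrays per group. The methods name female mice obtained at 8 weeks of age. The labels give all mice the genotype Foxp3-GFP-DTR-CD90.1, a reporter allele at the Foxp3 locus, and name the cells CD4+CD25+Foxp3+ Treg and CD4+Foxp3- Tconv. The methods instead name wild-type mice and a sort by CD4 and CD25, and nothing in the file decides between them. Organs were pooled before sorting, so that an array stands for a pool and holds no spread between single mice.

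Treg cells are CD4+ T cells that carry the transcription factor Foxp3 and the high-affinity interleukin-2 receptor chain CD25, and they restrain other immune cells. Tconv cells are the remaining CD4+ T cells, which help or drive immune responses. In fat, Treg cells are known for a gene program that differs from that of lymphoid Treg cells, and BAT is the depot that produces heat in the cold. The comparison asks which transcripts set the 2 cell types apart in BAT that was sampled during a cold challenge.

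RNA was measured on the Illumina MouseWG-6 v2.0 BeadChip, on which each probe is read by many beads (a median of 38 to 40 per array here). All 6 cold arrays lay on 1 BeadChip, with the Tconv cells on its first 3 positions and the Treg cells on its last 3, so that cell type and position cannot be told apart. Warm BAT and spleen each had a BeadChip of their own with the same arrangement. The file holds 45267 probes for transcripts without a gene name for any of them. The results are therefore for probes, no gene is named, and the cell types could not be checked against their markers.

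On the cold arrays 35.7% to 41.7% of the probes passed the deposited detection p-value at 0.05. So did 18.7% to 24.9% of the negative control probes, which match no transcript. A stricter limit, set where 95% of the negative controls of that array lay below, was passed by 12.8% to 15.6% of the probes on the Tconv arrays and 15.7% to 25.4% on the Treg arrays. The median intensity of the negative controls was 127 to 139 on the Tconv arrays and 99.6 to 121 on the Treg arrays, without overlap. The part of this difference in background in the results was not tested, but the counts without background correction are given beside the main ones.

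Signals were expressed as log2 after background correction and quantile normalization, and 17395 probes were tested that were detected on all 3 arrays of at least 1 of the 6 groups. Calls required both an adjusted p under 0.05 (limma, Benjamini-Hochberg) and a change of more than 2-fold. In cold BAT, 217 probes (1.25% of those tested) were called higher in Treg than in Tconv cells and 59 (0.339%) were called lower, 276 (1.59%) in all. Over all tested probes the differences leaned the other way. Only 39.8% lay above 0, the median log2 difference was -0.08, and the arrays of the 2 cell types did not overlap for 8.12% of the probes with Treg above and for 14.5% with Treg below. More than 2-fold differences, counted without a test, were again more often toward Treg cells (788 higher, 4.53%, and 395 lower, 2.27%).

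The 217 higher probes had a median log2 difference of 1.70, with the middle 50% between 1.37 and 2.14. More than 4-fold differences were found for 65 of them and more than 8-fold for 8. The 59 lower probes had a median of -1.62, with 23 over 4-fold and 1 over 8-fold. All 3 Treg arrays lay above all 3 Tconv arrays for 215 of the 217 (such non-overlap was found for 8.12% of all probes) and below them for all 59 (for 14.5% of all probes), which follows largely from the choice of the probes on these arrays. Without background correction 97 probes were called higher and 28 lower. With scaling to a common median in place of quantile normalization, which moved the median of all probes from -0.08 to 0.08, 432 were called higher and 25 lower, so that the share of higher calls was 94.5% instead of 78.6%.

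**Figure D1:**
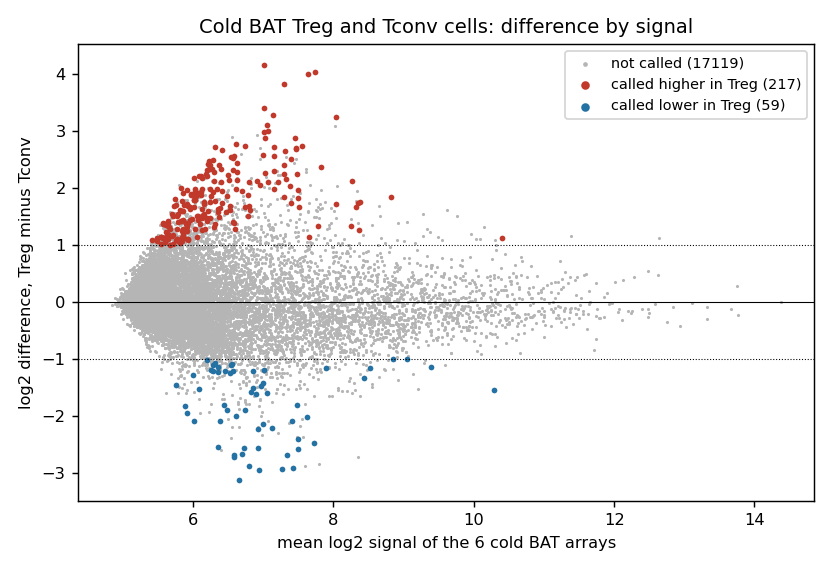
Log2 difference between cold BAT Treg and Tconv cells (y) against the mean log2 signal of the 6 cold arrays (x), with a point for each of the 17395 tested probes and dotted lines at 2-fold. The 217 probes called higher (red) lie mostly at low signals, and the 59 called lower (blue) start further to the right.

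The direction of the calls varied with the brightness of the probes, and the cause was not tested. The tested probes were split into 4 equal groups by their mean signal over all 18 arrays. The dimmest group held 29 higher calls (0.667%) and 0 lower ones. Its means lay between 4.96 and 5.39 on the log2 scale, near background. Without a test, 85 of its probes passed the 2-fold limit toward Treg cells and 0 toward Tconv cells. A call also required the 2-fold limit, so that the 0 lower calls follow from this count. The next brighter groups held 69 (1.59%) and 4 (0.092%), then 74 (1.7%) and 8 (0.184%). In the brightest group, 45 probes (1.03%) were called higher and 47 (1.08%) lower, so that the excess of higher calls was absent there. That group had the lowest median log2 difference of the 4, -0.21, compared with -0.02 in the dimmest. The median standard error of a difference rose from 0.17 in the dimmest to 0.44 in the brightest group.

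Detection was counted as well, at a limit that part of the negative controls also passed. Of the tested probes, 342 were detected on all 3 Treg arrays and on 0 Tconv arrays, and 124 had the opposite pattern. Among the first, 51 were called higher (14.9%, all probes 1.25%), and among the second, 4 were called lower (3.23%, all probes 0.339%), directions that the detection classes themselves fixed. Detection on each of the 6 arrays was found for 10403 probes. Of these, 80 (0.769%, all probes 1.25%) were called higher and 43 (0.413%, all probes 0.339%) lower. Thus 23.5% of the higher probes had no detected signal on any Tconv array, and 6.78% of the lower ones had none on any Treg array. With each of these raised to the smallest detected signal of its array, the median log2 differences were 1.66 and -1.62.

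The probe with the largest difference was ILMN_2778289. Its log2 signal was 9.26, 9.33 and 8.67 on the 3 Treg arrays and 4.82, 5.05 and 4.91 on the 3 Tconv arrays. It was detected on every Treg array and on 0 Tconv arrays, and its deposited intensities were 575 to 928 in Treg and 108 to 138 in Tconv cells, each a mean over 33 to 52 beads. With the main background settings, its signal was at least 15.5-fold higher in Treg cells, against the smallest detected signal of each Tconv array. The log2 difference in the fit was 4.16 with a standard error of 0.23 (limma adjusted p = 3.05e-07). This size depended on the settings, with 2.54 without background correction and 3.16 with an offset of 50. In warm BAT the pattern was the same, with 9.00 ± 0.58 (SD, n = 3) in Treg and 4.89 ± 0.04 in Tconv cells. In spleen the probe was detected on 0 of 6 arrays.

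ILMN_2944755 followed, with log2 signals of 9.64, 9.71 and 9.92 in cold BAT Treg and 5.59, 5.57 and 6.02 in cold BAT Tconv cells. It was detected on all 6 arrays, so that it was low rather than undetected in Tconv cells. With the main settings the difference was 16.3-fold (log2 difference 4.03 with a standard error of 0.43, limma adjusted p = 0.000219). The log2 difference was 2.47 without background correction and 3.37 with an offset of 50. In warm BAT the probe stood at 10.02 ± 0.30 (SD, n = 3) in Treg and 5.79 ± 0.64 in Tconv cells. Splenic Treg cells spread from 5.34 to 7.50 and overlapped splenic Tconv cells, which lay between 5.08 and 5.59.

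The probe with the lowest fitted difference was ILMN_2714874. Its log2 signal was 5.10, 5.14 and 5.04 on the Treg arrays, near background and detected on 2 of 3, and 8.13, 7.85 and 8.67 on the Tconv arrays. The fitted difference was 8.72-fold (log2 difference -3.12 with a standard error of 0.61, limma adjusted p = 0.0158), which is not an exact fold, since the Treg signals were at or near background. The standard error was estimated over all groups. The SD of this probe was 0.05 in cold BAT Treg and 0.42 in cold BAT Tconv cells, and 0.47 to 1.27 in the other groups. The adjusted p from limma was 0.013 with only the arrays compared and 0.00903 with the 6 cold arrays processed on their own. It was 0.0566 without replicate 1 and 0.0841 without replicate 3 of the Tconv cells, in fits that kept the other groups. In warm BAT the 2 cell types overlapped, with Tconv arrays at 5.43, 7.64 and 7.64 and Treg arrays at 5.05, 7.09 and 6.74. The difference between the cold and the warm contrast, -2.52 on the log2 scale with a standard error of 0.86, did not pass the test (adjusted p = 1 from limma).

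ILMN_2685712 had log2 signals of 5.59, 5.89 and 4.93 in cold BAT Treg and 8.12, 8.78 and 8.37 in cold BAT Tconv cells, a fitted 7.74-fold difference (log2 difference -2.95 with a standard error of 0.42, limma adjusted p = 0.0023). It was detected on all Tconv arrays and on 2 of 3 Treg arrays, and the undetected array was part of the Treg mean, so that the fold is not exact. It was lower in Treg cells in warm BAT too, at 6.56 ± 0.33 (SD, n = 3) against 9.29 ± 0.09. In spleen it was detected on 0 of 3 Tconv arrays and on 1 Treg array, so that its high level was seen in the Tconv cells of BAT among the 6 groups.

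**Figure D2:**
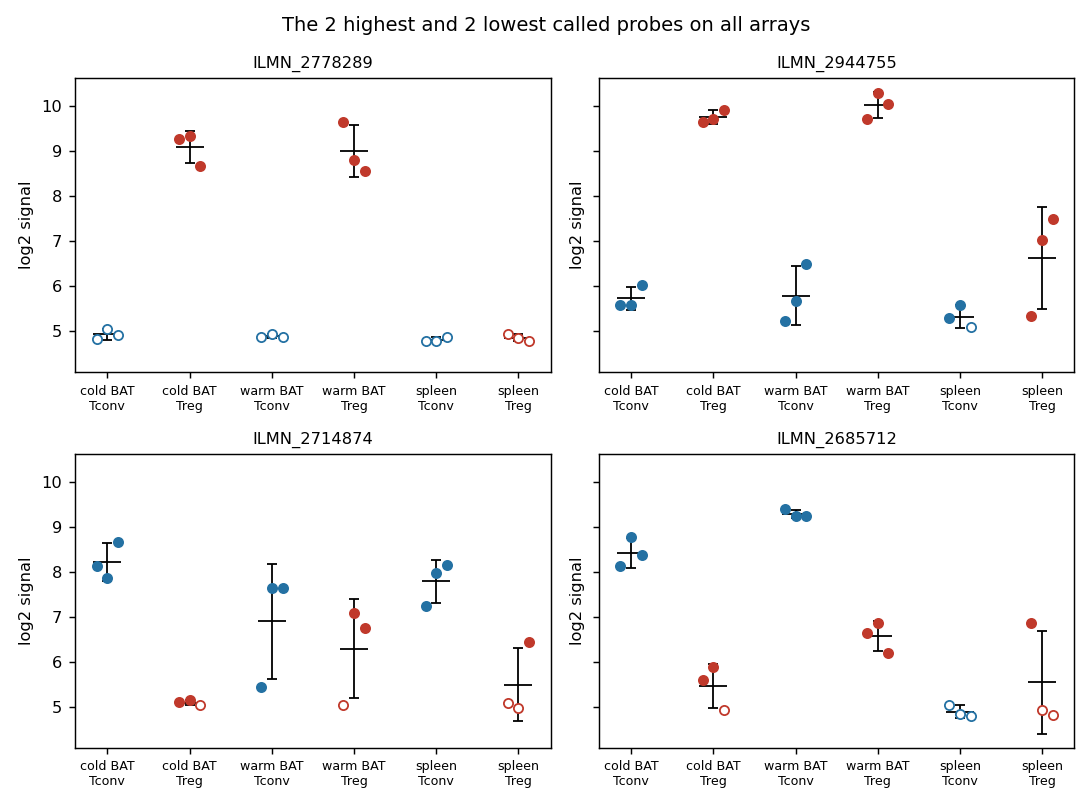
Log2 signal (y) of the 2 highest and the 2 lowest called probes on each of the 18 arrays by group (x). Red points are Treg and blue points Tconv arrays, open points were not detected, and bars give the mean ± SD of 3 arrays. ILMN_2778289 and ILMN_2944755 are highest in the Treg cells of cold and warm BAT.

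The 6 arrays did not carry the comparison equally. Across the tested probes, Pearson's correlation was 0.895 to 0.904 among the Tconv arrays, 0.81 to 0.891 among the Treg arrays and 0.77 to 0.867 between the cell types. Treg replicate 3 stood apart. On it 1233 probes lay more than 2-fold above or below both other Treg arrays, compared with 703 on replicate 1, 505 on replicate 2 and 407 to 519 on the Tconv arrays. A first principal component of the 6 arrays (38.7% of the variance) separated the cell types, and the second (24.7%) separated Treg replicate 3 from the rest.

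Each cold array was then left out in turn, with detection required on the arrays that remained. Without Treg replicate 3, 461 probes were called higher and 86 lower. The calls fell to 107 and 34 without replicate 1 of the Tconv cells, to 144 and 64 without replicate 2 and to 88 and 30 without replicate 3 of the Tconv cells. They were 155 and 43 without Treg replicate 1 and 214 and 48 without Treg replicate 2. The same 67 higher and 18 lower probes were called in each of these 6 fits and with all arrays, and 30 and 11 of them were also called in the 11 other limma alternatives. The 67 and 18 had median log2 differences of 1.98 and -2.55, larger than those of all called probes. This follows at least partly from their stricter choice on the same arrays. Of the 4 probes named above, all but ILMN_2714874 kept an adjusted p under 0.05 in the other 17 limma fits that were run.

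**Figure D3:**
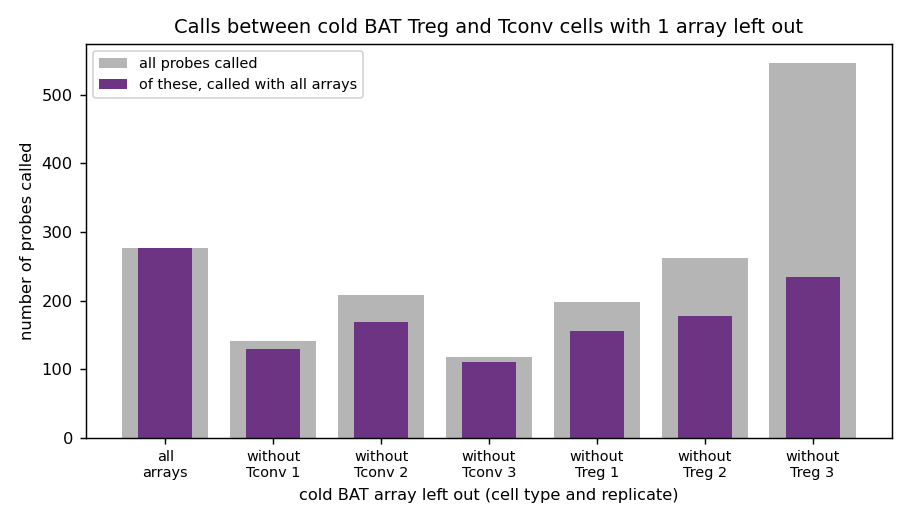
Number of probes called between cold BAT Treg and Tconv cells (y) with all arrays and with each cold array left out (x). Grey bars are all probes called, and purple bars those also called with all arrays. The total runs from 118 without Tconv replicate 3 to 547 without Treg replicate 3.

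The beads of a probe on an array gave a smaller error than the spread between arrays. Both were put on the log2 scale without background correction, the bead error from the intensities as deposited and the SD between arrays after quantile normalization. The median standard error over beads was 0.06 on the Treg and 0.08 on the Tconv arrays. The median SD between the 3 arrays was 0.16 and 0.14. The SD between arrays was the larger of the 2 for 86.5% of the tested probes in Treg and 79.1% in Tconv cells. For any single value, 3 arrays against 3 allow no two-sided exact permutation p under 0.1.

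The called probes were next followed in warm BAT, whose arrays had no part in the contrast that chose them but shared its normalization, filter and estimate of variance. Of the 217 higher probes, 207 (95.4%) were higher in warm BAT Treg than in warm BAT Tconv cells, where 45.3% of all tested probes were. More than 2-fold differences were seen for 117 (53.9%, all probes 3.03%), and 63 (29%, all probes 0.569%) were called. Of the 59 lower probes, 58 were lower, 30 (50.8%, all probes 1.74%) more than 2-fold, and 22 (37.3%, all probes 0.19%) were called. The arrays of the 2 cell types did not overlap for 142 of the 217 (65.4%, all probes 8%) and 40 of the 59 (67.8%, all probes 10.6%), and 0 probes of either set were called the opposite way. Of the 67 higher probes called in every fit that left out 1 cold array, 35 (52.2%, all probes 0.569%) were called in warm BAT. Of the 18 such lower probes, 15 (83.3%, all probes 0.19%) were called there.

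In spleen fewer of them differed. Of the 217 higher probes, 144 (66.4%, all probes 50.8%) were higher in splenic Treg than in splenic Tconv cells, 27 (12.4%, all probes 4.6%) more than 2-fold, and 15 (6.91%, all probes 0.592%) were called. Of the 59 lower probes, 13 (22%, all probes 3.51%) were more than 2-fold lower, and 6 (10.2%, all probes 0.339%) were called. Arrays did not overlap for 43 of the higher (19.8%, all probes 6.44%) and 11 of the lower probes (18.6%, all probes 5.32%). The signals in spleen were low. On the spleen arrays 27.8% to 35.1% of all probes in the file were detected, compared with 37.8% to 42.2% on the warm BAT arrays. On each spleen array 813 to 1542 tested probes lay more than 2-fold above or below both others of its group. On the warm BAT arrays it was 228 to 1020. The part of this in the smaller counts for spleen was not tested. Of the 217 higher probes, 76 were detected on 0 of the 6 spleen arrays and 11 on all 6, compared with 1 and 89 on the warm BAT arrays. Of the 59 lower probes, 42 were detected on all 6 spleen arrays. Of all 17395 tested probes, 11 were called higher in cold BAT, warm BAT and spleen alike, all of them among the 217. Lower in all of them were 5, all among the 59.

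**Figure D4:**
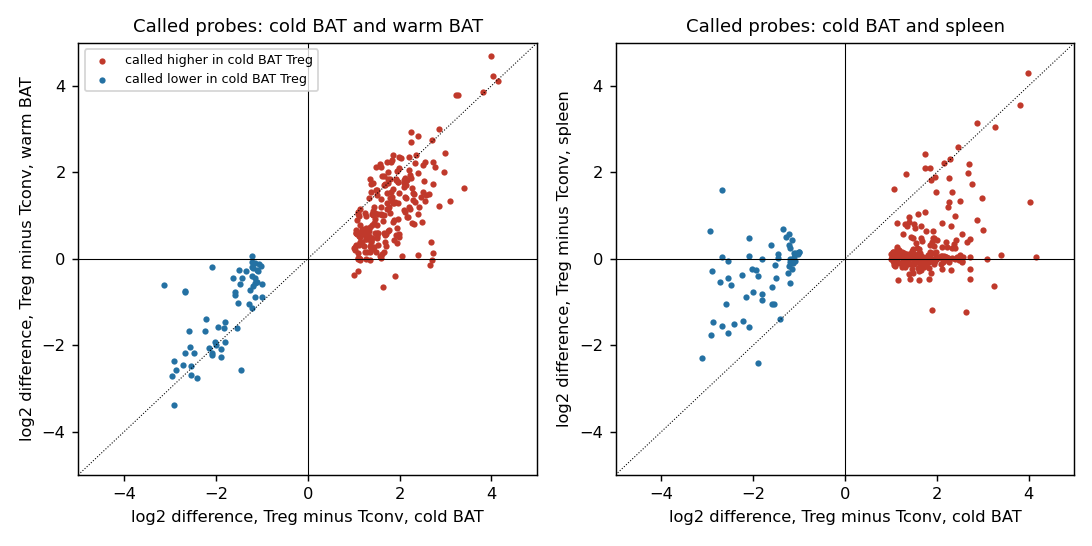
Log2 difference between Treg and Tconv cells in warm BAT (left, y) and in spleen (right, y) against that in cold BAT (x) for the 276 called probes, with a dotted line at equal differences. In warm BAT 265 of the points have the sign they have in cold BAT, and in spleen many higher probes lie near 0.

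The mean signal of each set on the other arrays gave the same order. The 217 higher probes averaged 6.74 ± 0.05 (SD, n = 3) on the log2 scale in warm BAT Treg and 5.58 ± 0.09 in warm BAT Tconv cells, a difference of 1.16 (standard error 0.06). In spleen it was 5.51 ± 0.09 and 5.19 ± 0.04, a difference of 0.32 (standard error 0.05). The 59 lower probes differed by -1.26 in warm BAT and by -0.39 in spleen. Under the other background and scaling settings the differences of the higher probes ranged from 0.66 to 1.34 in warm BAT and from 0.19 to 0.27 in spleen, and both sets kept their sign. In cold BAT the same means were 7.30 ± 0.10 in Treg and 5.49 ± 0.07 in Tconv cells, where a large difference follows from the choice of the probes.

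**Figure D5:**
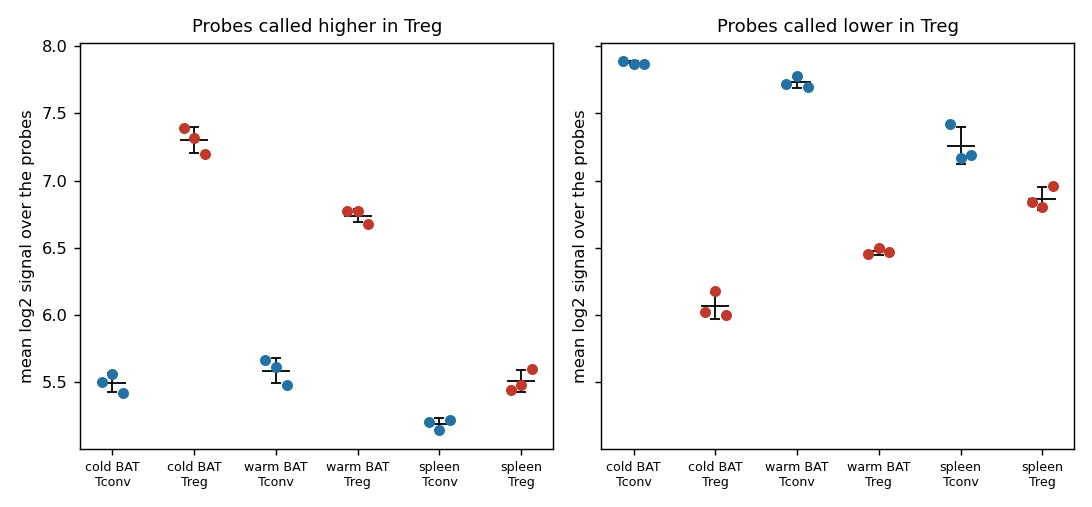
Mean log2 signal over the 217 probes called higher (left, y) and the 59 called lower (right, y) in cold BAT Treg cells, for each of the 18 arrays by group (x). Red points are Treg and blue points Tconv arrays, and bars give the mean ± SD of 3 arrays. The cold BAT points chose the probes. The Treg arrays of warm BAT lie at 6.68 to 6.77 on the left, above all spleen and Tconv arrays.

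Detection followed the signal. The 217 higher probes were detected on every cold BAT Treg array, and 52.5% to 60.8% of them were detected on a cold BAT Tconv array. On the warm BAT Treg arrays the range was 90.3% to 94%, on warm BAT Tconv arrays 53.9% to 65.9%, on splenic Treg arrays 32.3% to 44.7% and on splenic Tconv arrays 17.5% to 32.7%. Among the 6 group means, the highest was that of cold BAT Treg cells for 161 of the 217 probes, of warm BAT Treg cells for 50 and of splenic Treg cells for 6, but the probes were chosen for a high signal in cold BAT Treg cells. Each tissue and temperature had a BeadChip of its own, so that a difference in level between them cannot be told apart from one between BeadChips.

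Over all 17395 tested probes, without any choice, the log2 differences between Treg and Tconv cells in cold and in warm BAT had a correlation of r = 0.55 across probes, and those in cold BAT and in spleen one of r = 0.13. The same sign was found for 62.7% and 52.1% of the probes. Among the 6495 probes detected on all 18 arrays the correlations were 0.47 and 0.13. Probes are not independent replicates, and the arrays of cold BAT, warm BAT and spleen share their arrangement on the BeadChips and the normalization. The spleen arrays also detected fewer probes, and most spread more than those of warm BAT. The part of this in the lower correlation was not tested.

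Whether the difference between Treg and Tconv cells in cold BAT differed from that in warm BAT was tested directly, as a difference of differences in the same fit. With limma, 0 probes were called (0%), the smallest adjusted p was 0.101, and 687 probes (3.95%) had an unadjusted p under 0.05. Without Treg replicate 3 of cold BAT 29 probes were called, all with the larger difference in cold BAT, without Treg replicate 1 it was 3, and without each of the other 10 arrays at most 1. With median scaling 6 were called and with array weights 1. For the 276 probes called in cold BAT, the median 95% interval of this difference reached 0.96 log2 units to either side. This interval was not adjusted for the number of probes, and the adjusted test needed larger differences. Over all tested probes, the Treg minus Tconv difference was more than 2-fold larger in cold than in warm BAT for 562 and more than 2-fold smaller for 336. Since 0 of these were called, differences above 2-fold could be missed as well.

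Against spleen the difference was tested in the same way. Spleen was sampled only at 30°C, so that tissue and temperature cannot be told apart in this contrast. Of the tested probes, 34 (0.195%) were called with a larger Treg minus Tconv difference in cold BAT and 25 (0.144%) with a smaller one. Among the 34, 25 were also called higher in cold BAT Treg cells (all probes 1.25%), and 9 were called lower in splenic Treg cells (all probes 0.339%). On the spleen arrays, 14 of the 34 were detected on 0. The 34 had median log2 differences of 1.80 in cold BAT, 0.62 in warm BAT and -0.13 in spleen. Among the 25, 7 were called lower in cold BAT Treg cells (all probes 0.339%). Called higher in splenic Treg cells were 14 of the 25 (all probes 0.592%). The 25 had medians of -0.64 in cold BAT, -0.15 in warm BAT and 1.53 in spleen. The larger differences came mainly with a contrast in cold BAT, and the smaller ones mainly with a contrast in spleen. Thus 25 of the 217 higher and 7 of the 59 lower probes passed this test (all probes 0.195% and 0.144%). The cold BAT difference is part of this contrast, so probes chosen for it were favoured to pass. The spleen difference is the other part, so the overlaps with calls in cold BAT or spleen follow partly from the test.

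These counts rested on single arrays. Without Treg replicate 3 of cold BAT, 205 larger and 54 smaller differences were called, and 69 and 24 without Treg replicate 2 of cold BAT. Without Tconv replicates 1, 2 and 3 of cold BAT they were 19 and 7, 18 and 7, and 16 and 9. Without Tconv replicate 1 of spleen they were 65 and 108, without Tconv replicate 2 of spleen 37 and 13, without Tconv replicate 3 of spleen 52 and 25, and without Treg replicate 1 of spleen 19 and 14. With median scaling they were 58 and 4, a share of 93.5% larger in place of 57.6%.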

How the data were processed

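The authors deposited 1 table with the mean bead intensity of each probe on 18 arrays, not normalized and without background subtraction, made from 2.5 ng of amplified RNA per the labels. They also deposited a detection p-value per probe and array, whose calculation and software are not given in the sources used here, and the spread and number of beads, used here for the 6 cold arrays. A further 60 columns were not used. Columns were matched to samples by the 2 header lines.

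In limma 3.58.1 (R 4.3.3), neqc corrected the background of 45267 regular probes by 936 negative controls. It then applied an offset of 16, quantile normalization and log2. The 34 other control probes were left out. Tested probes passed detection (p under 0.05) on each of the 3 arrays in 1 group or more. One linear model with a mean for each group covered the 18 arrays and left 12 residual degrees of freedom. The fit was tested on simulated data. Figures used Python 3.11.15 and matplotlib 3.10.9.

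Named probes are the 2 highest and 2 lowest by log2 difference among called probes without overlap. A bound takes the lowest detected signal of each array. The study's methods name no test for these arrays. The alternatives were other background, scaling and filter settings, a replicate block, fewer arrays, and the t-test of the methods' general statistics. Array weights, a filter on the cold groups and the cold arrays on their own were added after seeing the data. The comparison and its tests were chosen with earlier results of these data known. Marker gene lists were not analysed here. The labels do not say that replicates came from separate pools of mice, so p-values measure the spread between these arrays, which limits the precision.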

Additional observations from a re-analysis of the deposited data

Results flagged for a closer look

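The Treg minus Tconv difference exceeded that in spleen for 34 probes in cold BAT and fell short of it for 25, by limma's test of the difference of differences. Of the probes named in the report, ILMN_2778289 had a larger difference in cold BAT than in spleen by 4.11 log2 units (standard error 0.33, adjusted p = 3.89e-05 from limma). It was not detected on any spleen array or on any cold BAT Tconv array, so that this value was taken against background signals and is not an exact size. ILMN_2685712 had a lower one by -3.60 log2 units (standard error 0.60, adjusted p = 0.0198 from limma), and it was detected on 1 of the 6 spleen arrays.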

How the results depend on the processing

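Of the cold BAT calls, 276 in all, 217 higher and 59 lower, the counts were 125, 97 and 28 without background correction, 177, 136 and 41 with an offset of 50, 457, 432 and 25 with median scaling, 173, 133 and 40 without a detection filter, and 126, 88 and 38 when only the 6 arrays were fitted. The methods' t-test at an unadjusted p under 0.05 gave 624, 386 and 238 on log2 signals and 149, 104 and 45 on linear intensities, and after Benjamini-Hochberg adjustment 0, 0 and 0 and 1, 1 and 0. Of the alternatives added after seeing the data, array weights gave 497, 372 and 125, and the 6 arrays processed on their own 137, 100 and 37. With 1 array left out the total ranged from 118 to 547, the higher from 88 to 461 and the lower from 30 to 86. The other filters gave 283 to 287 in all.

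The 0 probes with a different response in cold and warm BAT were 6 with median scaling, 1 with array weights and 0 to 29 with 1 array left out. The 59 probes that differed from spleen (34 larger and 25 smaller) were 32, 20 and 12 without background correction, 36, 24 and 12 without a filter, 62, 58 and 4 with median scaling, 31, 26 and 5 with only the arrays compared and 24, 16 and 8 with array weights. With 1 array left out they ranged from 25 to 259, 16 to 205 and 7 to 108. The cause of these shifts was not tested.

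With the replicate number as a block within each BeadChip, 242 probes were called in cold BAT (185 higher and 57 lower), 0 differed from warm BAT and 26 from spleen (19 larger and 7 smaller). Treg and Tconv arrays of cold BAT with the same number deviated together by r = 0.04, -0.01 and 0.12, those of warm BAT by 0.19, 0.06 and 0.08 and those of spleen by 0.04, 0.05 and 0.01. The Treg array correlated best with its own number for 1 of 3 pairs in cold BAT, 3 of 3 in warm BAT and 2 of 3 in spleen. Since not every pair was over 0.1, the arrays were treated as sharing only a number. The gene list alternatives were not run, since the probes were not paired with genes. The 4 named probes kept their direction in all 17 other limma fits. Without background correction their log2 differences shrank to 2.54, 2.47, -1.69 and -1.62, in the order named above. Low signal over background limits what can be called among dim probes.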

Other observations

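The 14 housekeeping control probes, which took no part in the normalization, had a mean log2 intensity as deposited of 9.58, 9.71 and 9.56 on the cold BAT Tconv arrays and of 9.61, 9.46 and 9.38 on the cold BAT Treg arrays, so that the groups overlapped. Limma's array weights, estimated over all 18 arrays, were 0.85, 2.06 and 0.67 for replicates 1, 2 and 3 of the cold BAT Treg cells. They were 1.11 to 1.34 for the cold BAT Tconv cells, 0.87 to 1.73 for the warm BAT arrays and 0.48 to 1.04 for the spleen arrays. The spread between the spleen arrays also entered the variance shared by the main fit.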
